A study of Mus musculus with 12 samples.

Results

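Recombinant IFNβ (rIFNβ) was compared with untreated control in bone marrow-derived macrophages (BMDM) labelled M2-like, as the effect of the cytokine alone without tumor cell supernatant. The members were the 3 rIFNβ and 3 untreated libraries, 6 of the 12 in the series, and 15033 of the 56748 genes listed, those that passed a filter on low counts. All 12 libraries were of BMDM from young adult female C57BL/6J mice, grown in M-CSF at 20 ng/mL and given IL4 at 10 ng/mL for 48 hours. The rIFNβ group then received medium with 1500 pg/mL rIFNβ for 72 hours, the untreated control group received unsupplemented medium for the same 72 hours, and the other 2 groups received supernatant of Dox-treated YUMM5.2 melanoma cells, a mouse line, that expressed either eGFP or Ifnb1 with eGFP. Neither the labels nor the methods say whether libraries of a group came from separate mice, so p-values measure the spread between these libraries, which may be technical. Bulk RNA was sequenced, so that fewer cells of a type and less RNA of a gene per cell cannot be told apart.

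IFNβ is a type I interferon, a secreted cytokine that nearly all cells answer. It binds the receptor pair IFNAR1 and IFNAR2, whose kinases JAK1 and TYK2 phosphorylate transcription factors of the STAT family. With IRF9 these form the complex ISGF3, which binds the interferon-stimulated response element (ISRE) in promoters of interferon-stimulated genes. Macrophages exposed to type I interferon are known for antiviral effectors, stronger antigen presentation and altered lipid metabolism, whereas IL4 acts through STAT6 and favours genes of tissue repair, the state called M2-like.

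The libraries held 31526034 to 44713667 counts, and values are given as CPM, counts per 1000000 of the library total after TMM scaling, which are not divided by gene length and are compared here only between libraries. Of the 10 macrophage markers all were tested and present, but 5 rose and 3 fell with rIFNβ. Log2 fold changes ran from −2.17 for Itgam to 4.46 for Fcgr1. The markers summed to 14753 to 15952 CPM in the untreated libraries and 10254 to 10433 CPM with rIFNβ. Csf1r, the M-CSF receptor, stood at 1023, 1036 and 1077 CPM in the untreated libraries and 1139.6, 1121 and 1099 CPM with rIFNβ. Markers of the M2-like label were present in part. Mrc1 stood at 632, 739 and 609 CPM in the untreated libraries, Retnla at 59.4, 68.1 and 53.04 CPM and Chil3 at 63.2, 79.9 and 75.2 CPM. Arg1, a defining M2 gene, was at 0.413, 0.410 and 0.544 CPM, and Ccl17, Ccl24, Alox15 and Cdh1 had 1, 19, 11 and 30 counts in the 6 libraries together, under the filter. Ifnb1 itself had 0 counts in the 6 libraries, and 8 of the 9 interferon genes listed were at 0. Defining markers of some other cells were near 0. Cd3e of T cells had 1 count, Ly6g of neutrophils 5 counts and Tyrp1 of melanoma cells 0 counts in the 6 libraries. Others were present. Of 12 T cell and NK cell markers 2 were tested, and they moved in opposite directions. Cd4 rose (1.00), from 3.72, 4.74 and 4.31 CPM in the untreated libraries to 8.78, 8.82 and 8.03 CPM with rIFNβ. Klrb1c was called lower (−4.07), with 37 counts in the untreated libraries and 2 with rIFNβ, so that its ratio rests on few counts. Of 12 stromal and endothelial markers 10 were tested, 4 rose and 2 fell. That list summed to 38.5 to 87.6 CPM in the untreated libraries and 57.6 to 84.05 CPM with rIFNβ. Ighm, the heavy chain of immunoglobulin M, was at 10.8, 26.6 and 28.9 CPM in the untreated libraries and 0.208, 0.0900 and 0.556 CPM with rIFNβ, whereas the B cell factor Pax5 rose (2.81) and stayed under 1 CPM. Cd79b, also under 1 CPM, was at 0.67 (edgeR adjusted p = 0.024) and lost its call with DESeq2 (0.132) and without untreated replicate 1 or 2 or rIFNβ replicate 1 (0.0534 to 0.112). The part of such cells in the results below was not tested. The eGFP supernatant replicate 2 library, which is not compared here but shares the estimate of the spread, stood apart from its group in antiviral genes (summed 4748 CPM against 2653 and 2908 CPM), and the main counts are also given without it.

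Promoters of genes that changed are shown first, since the elements named above lie in them. Mouse promoters from RefSeq (GRCm38.p6, 250 bases before to 50 after the start) were searched on both strands for the ISRE core GAAANNGAAA. The core was present in 3.99% of the 27025 genes with a listed promoter. It was present in 19 of 42 antiviral effectors with a listed promoter, in 10 of 10 guanylate-binding proteins and immunity-related GTPases with one, and in 5 of 20 such members of MHC class I presentation. The first pair of lists had a promoter for under 80% of their members, so that those counts describe the listed promoters alone. Further elements were searched in the same way, TCACNCCAC of sterol regulation, TTTCCCGC or TTTGGCGC bound by E2F factors, and TTCNNNGAA, the gamma-activated site of STAT dimers. They were present in 1.44%, 1.80% and 9.55% of all genes with a listed promoter. Matches of the core overlapped a gamma-activated site in 24 of the 32851 promoter windows and an E2F element in 5. Shown are the antiviral effectors with the smallest adjusted p that hold the core, Oas1c and Oas1b of the 2′-5′-oligoadenylate synthetases, and Ifitm3, which blocks virus entry, and H2-T22 of MHC class I. Capitals mark the core. The windows, all on the minus strand, are chr5:120812465-120812764, chr5:120887564-120887863, chr7:141010695-141010994 and chr17:36042693-36042992.
Oas1c: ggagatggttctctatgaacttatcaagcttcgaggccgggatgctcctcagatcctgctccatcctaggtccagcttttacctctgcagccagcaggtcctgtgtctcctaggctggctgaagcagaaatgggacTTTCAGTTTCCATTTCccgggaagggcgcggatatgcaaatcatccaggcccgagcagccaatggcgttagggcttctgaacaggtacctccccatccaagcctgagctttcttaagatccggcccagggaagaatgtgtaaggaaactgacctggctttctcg
Oas1b: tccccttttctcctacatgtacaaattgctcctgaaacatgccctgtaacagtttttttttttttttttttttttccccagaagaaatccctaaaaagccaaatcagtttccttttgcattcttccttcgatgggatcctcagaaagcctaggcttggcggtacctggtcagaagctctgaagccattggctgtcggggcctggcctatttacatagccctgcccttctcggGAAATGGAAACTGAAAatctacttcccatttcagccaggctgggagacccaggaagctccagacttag
Ifitm3: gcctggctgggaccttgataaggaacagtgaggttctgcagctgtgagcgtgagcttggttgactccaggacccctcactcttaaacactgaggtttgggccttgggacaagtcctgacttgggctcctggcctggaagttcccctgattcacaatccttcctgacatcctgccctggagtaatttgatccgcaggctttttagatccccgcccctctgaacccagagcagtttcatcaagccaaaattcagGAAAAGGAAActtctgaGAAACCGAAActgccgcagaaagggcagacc
H2-T22: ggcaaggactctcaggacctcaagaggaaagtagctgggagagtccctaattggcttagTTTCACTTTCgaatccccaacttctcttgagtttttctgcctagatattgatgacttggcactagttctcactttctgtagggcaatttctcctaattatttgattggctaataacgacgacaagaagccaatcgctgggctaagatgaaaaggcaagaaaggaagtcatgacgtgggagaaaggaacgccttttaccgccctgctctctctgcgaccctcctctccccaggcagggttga

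Oas1c, Oas1b and Ifitm3 each hold 2 matches, which share bases in Oas1c and Oas1b, and H2-T22 holds 1, and all 4 genes rose with rIFNβ, as given below. For genes that moved less, the promoter of Hmgcs1, an early enzyme of the sterol pathway, and those of the replication genes Mcm6 and Rfc3 are shown with the sterol element or the E2F element in capitals. Hmgcs1 was the only tested sterol synthesis gene of 18 with a listed promoter that held the sterol element, and 12 of 31 replication genes with a listed promoter held an E2F element. Promoters were listed for 69.2% and 77.5% of these lists, so that the counts describe the listed promoters alone. The windows are chr13:119690101-119690400 on the plus strand, and chr1:128359656-128359955 and chr5:151651159-151651458 on the minus strand.
Hmgcs1: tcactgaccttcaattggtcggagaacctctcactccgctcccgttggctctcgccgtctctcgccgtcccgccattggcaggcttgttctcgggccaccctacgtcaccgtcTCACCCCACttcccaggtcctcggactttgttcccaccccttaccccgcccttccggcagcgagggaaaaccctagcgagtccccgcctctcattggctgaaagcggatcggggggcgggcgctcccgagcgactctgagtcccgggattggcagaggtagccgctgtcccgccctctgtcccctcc
Mcm6: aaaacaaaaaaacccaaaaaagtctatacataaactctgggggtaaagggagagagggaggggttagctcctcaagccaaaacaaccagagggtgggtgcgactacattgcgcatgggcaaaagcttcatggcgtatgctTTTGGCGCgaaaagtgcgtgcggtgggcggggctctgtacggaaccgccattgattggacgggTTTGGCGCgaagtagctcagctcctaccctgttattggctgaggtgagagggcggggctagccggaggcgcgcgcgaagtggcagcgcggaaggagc
Rfc3: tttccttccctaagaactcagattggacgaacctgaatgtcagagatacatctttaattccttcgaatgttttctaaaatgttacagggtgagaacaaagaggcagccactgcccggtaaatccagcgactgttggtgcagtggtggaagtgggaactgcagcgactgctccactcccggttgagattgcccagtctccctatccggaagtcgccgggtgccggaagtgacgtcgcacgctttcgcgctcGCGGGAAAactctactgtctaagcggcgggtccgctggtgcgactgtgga

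A match describes letters in a window, not binding. Over genes called higher with rIFNβ the share of promoters with a core was 68 of 249, and over genes called lower 4 of 249, but only 73.0% and 72.8% of the protein-coding genes called had a listed promoter, under the 80% needed, so that as a comparison of the called genes this check is void.

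With rIFNβ, 449 genes were called higher and 418 lower (a log2 fold change of 2 or more in size with an edgeR quasi-likelihood adjusted p not above 0.01). These were 2.99% and 2.78% of the genes tested, 5.77% together. Without a fold threshold, 4608 genes rose and 3705 fell with an adjusted p up to 0.05 (30.7% and 24.6%), the rule used for members of gene lists below, and the 3 libraries of each group did not overlap for 66.1% of all genes, so that counts within a gene list are read against these shares. The median log2 fold change was 0.04 over all genes, 3.17 over those called higher and −2.70 over those called lower. Genes called higher rose from a summed 7836 CPM to 80987 CPM, and genes called lower fell from 34029 CPM to 5234 CPM. All 867 called genes had groups that did not overlap, a description only, since the calls were made on the same libraries. Genes too low in a group to pass the filter there had a direction fixed by the filter. Such were list members low in the untreated libraries, as Slfn1 and H2-Q6 below, and genes low with rIFNβ, as Col24a1 and Galnt9 below. Which direction was the more frequent depended on the settings. RLE factors in edgeR gave 434 higher calls and 436 lower ones, DESeq2 gave 443 and 469, and looser thresholds (a log2 fold change of 1 and an adjusted p of 0.05) gave 1163 and 1237. Without eGFP supernatant replicate 2 the counts were 461 and 417.

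**Figure D1:**
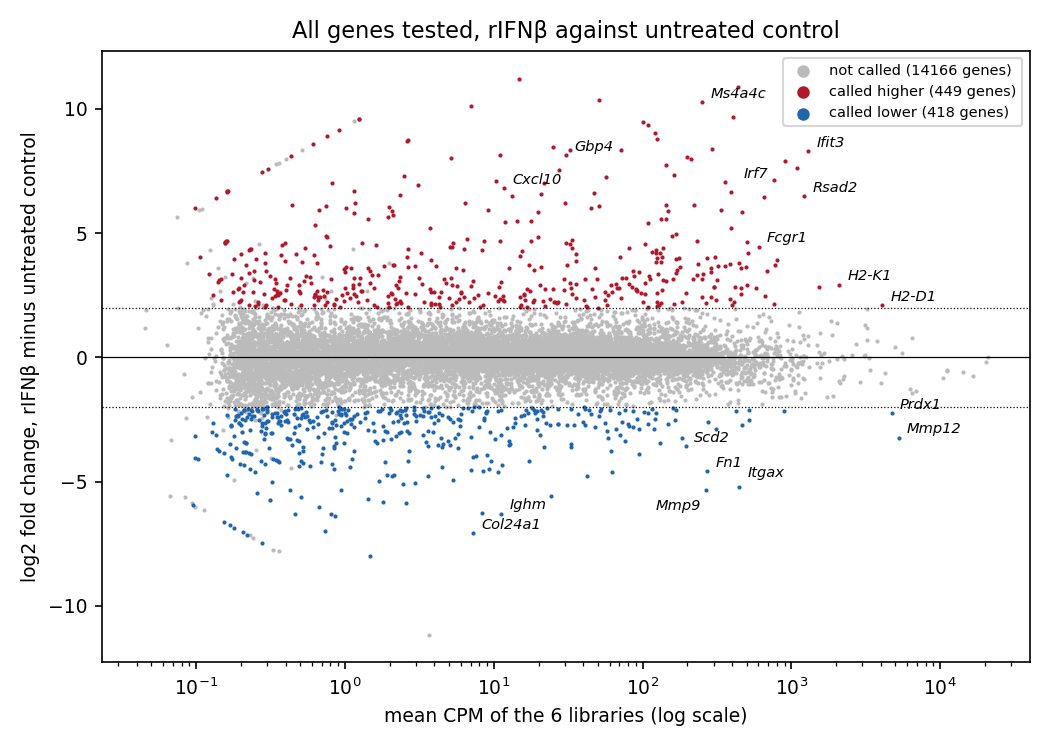
Each point is 1 of the 15033 genes tested, with the mean CPM of the 6 libraries on the x axis (log scale) and the log2 fold change, rIFNβ minus untreated control, on the y axis. The 449 genes called higher are red, the 418 called lower blue, and dotted lines mark a log2 fold change of 2 in either direction. Ifit3, Rsad2 and Irf7 combine a high level with a rise of over 6 on the log2 scale, and Mmp12, Itgax and Mmp9 stand at the lower right.

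Among the 12 largest rises, Ifit1bl1, of the IFIT proteins that bind foreign RNA, was at 0.413, 0.556 and 0.426 CPM in the untreated libraries and at 974, 816 and 826 CPM with rIFNβ. Each rIFNβ library lay far above each untreated library (log2 fold change 10.87, standard error 0.70, edgeR adjusted p = 1.4e-07). Slfn1 and Slfn4 of the Schlafen family, which restrain growth of T cells and myeloid cells, had log2 fold changes of 10.35 and 9.49. Ms4a4c, a membrane protein of the MS4A family, rose from 0.405 ± 0.0482 to 503 ± 52.9 CPM (SD, n = 3). The p200 family members Ifi208 and Ifi213, relatives of nucleic acid sensors, were at 9.34 and 9.03. Ifit3b (9.69) and the GTPases Iigp1 (8.79) and Tgtp1 (8.45) were also among them, ranked among genes that reached a mean of 5 CPM in the higher group. Apol9b, Gbp10 and BC023105 had only 1 count in the 3 untreated libraries together, so that their ratios rest on that count. The ratio for Apol9b was 3197 (95% counting interval 573 to 126307), with 3489 counts under rIFNβ. Members of such families are alike in sequence, and the counting method divides reads that fit several genes between them, so that values of single paralogs are less certain than those of the family.

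Among the largest falls, Col24a1, a collagen chain, was at 13.7, 15.98 and 13.3 CPM in the untreated libraries and 0.148, 0.0900 and 0.0758 CPM with rIFNβ, a log2 fold change of −7.09. With rIFNβ it was too low to pass the filter in that group, so that its direction was fixed by the filter. The same held for Cracdl, Galnt9, Ppp1r1a, Serpinb12 and Ighm, given next. Adhesion and matrix were represented by Mmp9, the gelatinase B (−5.32), and Itgax, the CD11c integrin chain (−5.22), with Dcstamp, needed for macrophage fusion (−4.77). Cracdl (−6.25), the glycosyltransferase Galnt9 (−5.86), the phosphatase inhibitor Ppp1r1a (−5.06), the myosin chain Myh15 (−4.96), Serpinb12 (−4.76), the sphingomyelinase Smpd3 (−4.63) and Ighm (−6.29) were also among the 12 with the largest falls at a mean of at least 5 CPM in the higher group.

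Called genes were also ranked by their gain or loss in mean CPM, which leaves out genes with a log2 fold change under 2 in size such as B2m and Gpnmb, given below. H2-D1, an MHC class I heavy chain, went from 1549 ± 66.6 to 6625 ± 341 CPM and H2-K1 from 486 ± 22.6 to 3701 ± 237 CPM (SD, n = 3). Lgals3bp, a secreted ligand of galectin-3, rose from 379.6 ± 66.4 to 2692 ± 127 CPM. Among called genes the largest loss was that of Mmp12, the macrophage elastase, at 9273, 9456 and 9756 CPM in the untreated libraries and 1084, 906 and 1050.3 CPM with rIFNβ. Prdx1, a peroxide-reducing enzyme, fell from 7790.3 ± 105 to 1631 ± 102 CPM. Itgam, the CD11b integrin chain used as a macrophage marker, fell from 1454 ± 46.1 to 323 ± 6.81 CPM (log2 fold change −2.17, edgeR adjusted p = 4.18e-11). The tetraspanin Cd9 and the ubiquitin ligase Rnf128 fell by a similar factor, with log2 fold changes of −2.53 and −2.13.

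The signalling chain below the receptor rose at its transcription factors. Stat2, which binds DNA only through its partners, was at 61.9, 49.9 and 43.4 CPM in the untreated libraries and 677, 662 and 662 CPM with rIFNβ (log2 fold change 3.69, standard error 0.31, edgeR adjusted p = 1.33e-06). Each rIFNβ library lay above each untreated library. Irf9 rose too (1.79), and Stat3 less (0.72). The receptor chains moved in opposite directions. Ifnar1 fell (−0.60, from 129 ± 2.22 to 85.2 ± 2.86 CPM) and Ifnar2 rose (0.73, from 77.1 ± 2.33 to 128 ± 4.09 CPM). Of the kinases Tyk2 rose (0.41) and Jak1 was at −0.15 (edgeR adjusted p = 0.0326), which lost its call without untreated replicate 1 or 2 or rIFNβ replicate 2 or 3 (0.067 to 0.105). Of the 10 receptor and transduction genes 6 rose and 3 fell, with Ifngr1 at −0.06 (edgeR adjusted p = 0.429). Irf7, which drives further interferon production, was at 11.3, 6.56 and 5.25 CPM in the untreated libraries and 1904, 1781 and 1742 CPM with rIFNβ (7.89). Irf1, Irf5 and Irf2 rose less (1.69, 0.81 and 0.70), and Irf4, which IL4 is known to induce, fell (−1.02, from 3.80 ± 0.601 to 1.86 ± 0.262 CPM). Of 11 tested feedback regulators 8 rose and 1 fell. Isg15 encodes a ubiquitin-like modifier (6.13), Uba7 activates it (2.06), Ube2l6 conjugates it (1.95), Herc6 is its ligase in mouse (4.00), and Usp18 removes it and blocks IFNAR2 (5.88). Socs1, which inhibits JAK kinases, rose from a low level (0.290 ± 0.0289 to 1.76 ± 0.608 CPM), and Socs3 was at 0.83 (edgeR adjusted p = 0.0595, or 0.0278 without eGFP supernatant replicate 2 and 0.0273 without rIFNβ replicate 2).

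Antiviral effectors rose nearly without exception. Of 53 listed, 52 were tested, 51 rose and 1 fell, and 41 were called higher, with a median log2 fold change of 3.47 against 0.04 over all genes. Summed over the list the untreated libraries held 2583 to 2983 CPM and the rIFNβ libraries 26770.0 to 28013 CPM. Ifit3 was at 10.6, 9.01 and 5.09 CPM in the untreated libraries and 2576, 2541 and 2661 CPM with rIFNβ. Rsad2, or viperin, which makes a chain-terminating nucleotide, was at 31.9, 28.1 and 20.7 CPM and 2525, 2428 and 2297 CPM in the same order, and its neighbour Cmpk2, a nucleotide kinase, rose by 7.14 on the log2 scale. Untreated replicate 3 was the lowest library for both genes, and the distance between the groups exceeded that spread many times. The dynamin-like GTPases Mx1 and Mx2 stood at 6.65 and 6.61. The 2′-5′-oligoadenylate synthetases Oas1a, Oas2 and Oas3 stood at 3.14, 4.18 and 5.22, and the decoy-like Oasl1 at 8.35. Oas1c and Oas1b, whose promoters are shown above, rose from 4.28 ± 0.267 to 29.1 ± 0.378 CPM and from 1.92 ± 0.0699 to 23.3 ± 0.957 CPM. Ifitm3 rose (4.22), as did Bst2, the tether of budding virions (3.11), Eif2ak2, the RNA-activated kinase PKR (2.09), and Isg20, an exonuclease (4.69). Smaller rises belonged to Samhd1, which depletes nucleotides (1.62), and Adar, the RNA editor (1.95). The member that fell was Ifi27, at 75.8, 87.3 and 86.98 CPM in the untreated libraries and 11.8, 11.6 and 11.9 CPM with rIFNβ (−2.82, edgeR adjusted p = 4.27e-10), while its neighbour in the family, Ifi27l2a, rose (2.20). Standard errors of these genes carried the spread of the eGFP supernatant library that stood apart. Their median was 0.26 with it and 0.14 without it, and without it 51 members rose and 1 fell.

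The guanylate-binding proteins and immunity-related GTPases, which attack the vacuoles of intracellular pathogens, rose in 18 of 18 members, with a median log2 fold change of 5.54 and 18 called higher. Gbp4 was at 0.159, 0.263 and 0.213 CPM in the untreated libraries and 64.9, 55.03 and 62.3 CPM with rIFNβ. Iigp1 was at 0.668, 0.673 and 0.378 CPM and 249, 234 and 262 CPM in the same order. Both were close to absent without the cytokine. Gbp10, Gbp11 and Gbp2b had 1, 1 and 3 counts in the untreated libraries, too few to pass the filter there. Gbp4 and Tgtp1 were also too low to pass it in that group. The direction of such members was fixed by the filter, so that 18 of 18 and the median are a description. Gbp2 (4.01), Irgm1 (3.67) and Igtp (4.23) rose from higher levels, between 11.8 ± 0.557 and 47.2 ± 6.41 CPM. Of 20 tested sensors and adaptors of foreign nucleic acid, 18 rose and 0 fell (median 2.13). The RNA helicases Rigi, Ifih1 (MDA5) and Dhx58 (LGP2) had log2 fold changes of 3.78, 3.41 and 3.35, and Zbp1, a sensor of Z-form nucleic acid, of 6.13. The endosomal receptors Tlr3 (2.62), Tlr7 (1.92), Tlr8 (2.10) and Tlr9 (2.85) rose, and Cgas, the DNA sensor that makes the messenger read by STING, rose as well (1.56). Sting1 itself was at −0.13 (edgeR adjusted p = 0.141) and the adaptor Ticam1 at 0.07 (edgeR adjusted p = 0.442). Of 19 listed members of the Ly6 and MS4A families 6 did not pass the filter and 13 rose. Of these Ms4a8a, Ms4a4d and Ly6c1, with 0, 2 and 3 counts in the untreated libraries, had too few to pass it there, so that their direction was fixed by the filter and the count is a description. Ms4a8a was at least 3.79-fold higher. Ly6e, a surface protein that restricts coronavirus fusion, went from 14.8 ± 2.35 to 1291 ± 68.1 CPM and Ms4a6b from 10.9 ± 1.38 to 658 ± 25.4 CPM.

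Transcripts of antigen presentation on MHC class I rose at most of its steps. Of 24 members 21 rose, 3 fell and 12 were called higher (median 2.02). H2-K1 was at 495, 460.1 and 502 CPM in the untreated libraries and 3749, 3911 and 3445 CPM with rIFNβ (2.93, standard error 0.10, edgeR adjusted p = 1.37e-09). B2m, the light chain shared by all class I molecules, was at 1437, 1282 and 1256 CPM and 5369, 5030.0 and 5100.4 CPM in the same order (1.96). Every rIFNβ library exceeded every untreated library for both. The non-classical chains H2-T22 (3.34), H2-Q4 (4.90), H2-Q6 (8.36) and H2-Q7 (7.02) rose further in ratio, the last pair from under 1 CPM. Transcripts for peptide supply rose too, those of the immunoproteasome subunits Psmb8 (1.99) and Psmb9 (2.50), the transporter Tap1 (3.17) and the trimming enzyme Erap1 (0.85). Nlrc5, the transactivator of class I genes, rose from 23.7 ± 1.60 to 158 ± 4.34 CPM (2.74). The 3 members that fell, Calr (−1.05), Canx (−0.44) and Pdia3 (−0.29), are general chaperones of the endoplasmic reticulum. Of 10 tested members of MHC class II presentation 3 rose and 2 fell, close to the shares over all genes. Cd74, the invariant chain, was at 133, 124 and 155 CPM in the untreated libraries and 155, 132 and 154 CPM with rIFNβ (0.10, edgeR adjusted p = 0.442). H2-Ab1 and H2-Aa were at 0.12 and 0.16 (edgeR adjusted p = 0.37 and 0.249), and Ciita, the class II transactivator, fell from a low level (1.36 ± 0.210 to 0.636 ± 0.104 CPM). Ctss, the protease that cleaves the invariant chain, rose (0.76).

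Surface molecules through which macrophages meet T cells changed in both directions, 11 of 20 up and 4 down. Cd86, a ligand of CD28 and CTLA-4, was at 3.85, 5.33 and 4.16 CPM in the untreated libraries and 59.7, 56.6 and 57.5 CPM with rIFNβ (3.70, standard error 0.14, edgeR adjusted p = 2.72e-09). Cd274, which encodes PD-L1, was at 78.4, 75.4 and 71.9 CPM and 583, 515 and 488 CPM in the same order (2.81). A stimulatory and an inhibitory ligand rose side by side, with no overlap of the groups. Tnfsf10, or TRAIL, which can trigger death of target cells, rose from 0.296 ± 0.0497 to 18.1 ± 1.37 CPM. Lgals9 (2.43), Slamf7 (2.30), Icosl (2.65) and Cd40 (1.41) rose, whereas Cd276, or B7-H3, fell (−2.21), and Cd80, the other CD28 ligand, fell slightly (−0.45). Fcgr1 and Fcgr4, activating receptors for immunoglobulin G, were at 58.4, 50.5 and 48.8 and 57.5, 59.7 and 52.4 CPM in the untreated libraries and at 1220.0, 1111 and 1132 and 346, 331 and 330.2 CPM with rIFNβ. The inhibitory receptor Fcgr2b fell (−0.59), and Fcgr3 was at −0.03 (edgeR adjusted p = 0.572). Of 17 tested complement genes 11 rose and 3 fell. The C1q chains C1qa, C1qb and C1qc stood at 1.92, 1.32 and 1.40, and Cfb and C4b rose from under 1 CPM (4.31 and 5.80). The receptor chains Itgam and Itgax were among the 3 that fell.

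Of 19 tested chemokines 10 rose and 3 fell. Cxcl10, which attracts CXCR3-bearing T cells and NK cells, was at 0.127, 0.293 and 0.189 CPM in the untreated libraries and 29.01, 20.8 and 20.01 CPM with rIFNβ (6.81). Its relative Cxcl9 had 2 counts in the untreated libraries and reached 0.475, 0.225 and 0.455 CPM with rIFNβ. Cxcl10 and Cxcl9 were too low in the untreated libraries to pass the filter there. Their direction was fixed by the filter, so that the count of chemokines is a description. The monocyte attractants Ccl7 (2.95), Ccl8 (4.08) and Ccl12 (2.87) rose, and Ccl2 was at 0.39 (edgeR adjusted p = 0.0942, or 0.024 without untreated replicate 2). Ccl22, an attractant of regulatory T cells that IL4 induces, fell from 27 to 2 counts summed over 3 libraries, a ratio with a counting interval of 3.70 to 128. The receptor Ccr2 fell (−3.36). Of 17 tested cytokines 10 rose and 2 fell. Il10, an anti-inflammatory cytokine, was at 0.445, 0.790 and 0.520 CPM in the untreated libraries and 7.09, 7.47 and 8.11 CPM with rIFNβ (3.69). Il15, which sustains NK cells and memory T cells, rose with its presenting receptor Il15ra (2.75 and 2.03). Il18 rose together with its antagonist Il18bp (2.27 and 3.88). Tnf was at 0.47 (edgeR adjusted p = 0.322), Il1b rose (1.34) but stayed under 1 CPM, and Il6, Il12a and Il12b had 20, 1 and 4 counts in the 6 libraries. Nos2, the inducible nitric oxide synthase of classically activated macrophages, rose as well and stayed under 1 CPM in every library (0.386, 0.225 and 0.227 CPM with rIFNβ). Without untreated replicate 3 its log2 fold change was 1.16 instead of 1.67 and the call was lost (edgeR adjusted p = 0.0581).

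**Figure D2:**
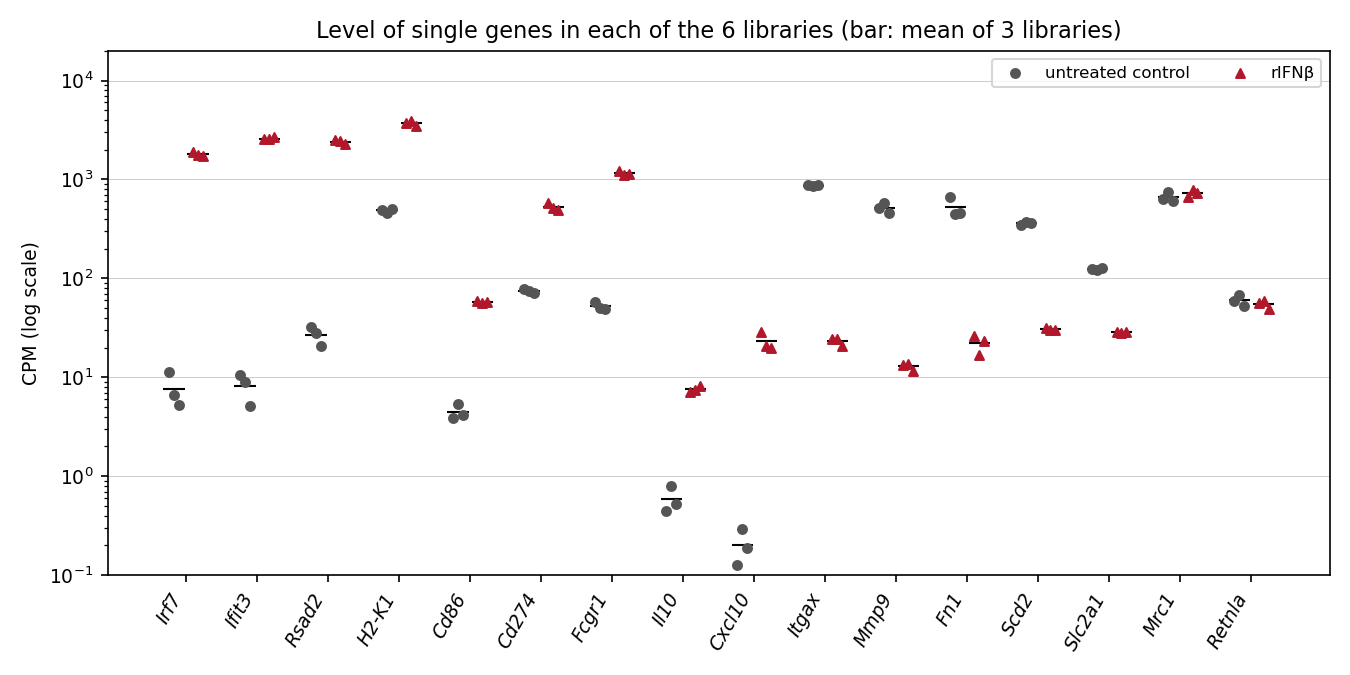
CPM on a log axis of 16 genes in each of the 3 untreated (grey circles) and 3 rIFNβ libraries (red triangles), with bars at the mean of 3 libraries. The groups do not overlap for Irf7 to Slc2a1, of which the genes from Irf7 to Cxcl10 lie higher with rIFNβ and those from Itgax to Slc2a1 lower, and they overlap for Mrc1 and Retnla.

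The genes that IL4 induces moved in both directions, with more falls than rises. Of 24 tested 7 rose, 11 fell and 6 did not pass, where 30.7% of all genes rose and 24.6% fell. The median log2 fold change was −0.37, against 0.04 over all genes. Of the list 1 member was called higher and 5 lower, beside 2.99% and 2.78% of all genes. Mrc1, the mannose receptor CD206, was at 632, 739 and 609 CPM in the untreated libraries and 662, 775 and 732 CPM with rIFNβ (0.13, standard error 0.08, edgeR adjusted p = 0.193, or 0.0312 without untreated replicate 2). Retnla, which encodes FIZZ1, was at 59.4, 68.1 and 53.04 CPM and 56.6, 59.5 and 49.6 CPM in the same order (edgeR adjusted p = 0.492), and the groups of both overlapped. Fn1, fibronectin, was at 669, 445 and 458 CPM and 26.3, 16.9 and 23.1 CPM (−4.57), and Egr2, a transcription factor of the late IL4 response, was at 147, 141 and 129 CPM and 14.9, 13.4 and 11.98 CPM (−3.37). Against these falls, Chil3 (0.67), Tgm2 (1.92), the receptor chain Il4ra (1.09) and Stat6 (0.31) rose. The literature-based M1 list of the study, matched for 137 genes and tested for 126, held 82 that rose, 21 that fell and 28 called higher (median 0.81). It includes interferon-stimulated genes such as Irf7, Rsad2 and Ifit2.

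Of 15 tested macrophage integrin chains 11 fell, 3 rose and 4 were called lower. Itgax was at 874, 858 and 874 CPM in the untreated libraries and 24.6, 24.5 and 20.8 CPM with rIFNβ (−5.22, standard error 0.09, edgeR adjusted p = 2.21e-11). Itgb2, the common partner of CD11b and CD11c, fell less (−1.56), Itgb3 fell (−2.61), and Itgav rose (0.91). Of 14 tested matrix metalloproteinases and inhibitors 6 fell, 4 rose and 2 were called lower (median −0.18). Mmp9 was at 517, 583 and 456 CPM in the untreated libraries and 13.4, 13.8 and 11.7 CPM with rIFNβ, whereas the collagenase Mmp13 rose (1.43) and Mmp14 was at 0.14 (edgeR adjusted p = 0.696). Genes of cell fusion and bone resorption fell as well, 6 of 7 tested osteoclast markers, Dcstamp and Ocstamp (−2.36) among them. Of 21 genes known from lipid-associated macrophages 14 fell and 3 rose. Gpnmb, a lysosomal glycoprotein, went from 21081 ± 936 to 12408 ± 618 CPM, Spp1, osteopontin, from 9963 ± 439 to 3842 ± 346 CPM, and Cd36, the fatty acid receptor, from 8909 ± 350.5 to 3663 ± 96.6 CPM. Trem2, the lipid-sensing receptor of that state, was at 0.02 (edgeR adjusted p = 0.92), and Apoe rose (1.16). In clearance of dead cells 10 of 15 genes fell. The bridging protein Mfge8 fell (−2.72) with Gas6 (−0.73) and the receptor Tyro3 (−2.26), while the receptor Axl rose (1.43). Mertk was at 0.30 (edgeR adjusted p = 0.0144) and lost its call without untreated replicate 3 (0.0655) or rIFNβ replicate 1 (0.0616). Scavenger and lectin receptors gave 12 falls and 6 rises among 23, with Siglec1, a sialic acid receptor typical of interferon-exposed macrophages, at 89.8, 71.9 and 49.6 CPM in the untreated libraries and 916, 865 and 782 CPM with rIFNβ (3.60).

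Sterol synthesis fell from its first enzymes to its last. Of 24 tested genes 22 fell, 0 rose and 11 were called lower, with a median log2 fold change of −1.71. The summed level was 1408 to 1545 CPM in the untreated libraries and 439 to 459 CPM with rIFNβ. Sqle, squalene epoxidase, was at 98.8, 109 and 101 CPM in the untreated libraries and 12.1, 13.8 and 13.1 CPM with rIFNβ (−2.98, standard error 0.07, edgeR adjusted p = 1.2e-10). Hmgcs1, whose promoter is shown above, was at 174, 178 and 153 CPM and 36.7, 36.4 and 37.4 CPM in the same order. The 3 libraries of a group differed little for either gene, and the groups lay far apart. Srebf2, the transcription factor of the pathway, fell less (−1.42). The enzymes Idi1 (−2.71), Cyp51 (−2.37) and Fdps (−2.28) fell as well. Mvk and Ebp did not pass the test (−0.36 and −0.01, edgeR adjusted p = 0.118 and 0.914). Fatty acid synthesis followed, with 12 of 14 genes lower and 0 higher (median −0.75). Scd2, a desaturase that makes monounsaturated fatty acids, was at 349.8, 369.6 and 364 CPM in the untreated libraries and 31.6, 30.2 and 30.1 CPM with rIFNβ (−3.56, edgeR adjusted p = 1.69e-12). The desaturases Fads1 and Fads2 (−1.35 and −3.66) and Fasn, fatty acid synthase (−1.42), fell, and Srebf1 was at −0.16 (edgeR adjusted p = 0.541). Genes of cholesterol export regulated by LXR receptors were mixed, 8 of 14 higher and 3 lower. Apoe and Pltp rose (1.16 and 0.87), Nr1h3, which encodes LXRα, rose (0.92), and the exporter Abca1 fell (−0.65) where Abcg1 rose (0.39). Plin2, the coat protein of lipid droplets, was at 1128, 1151 and 1093 CPM in the untreated libraries and 2896, 3067 and 2888 CPM with rIFNβ (1.39).

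Glycolysis genes fell too. Of 24 tested genes 19 fell and 0 rose (median −0.83). Slc2a1, the glucose transporter GLUT1, was at 126, 120.4 and 127 CPM in the untreated libraries and 28.98, 27.95 and 28.5 CPM with rIFNβ (−2.13, standard error 0.10, edgeR adjusted p = 1.54e-08). The enzymes Pgam1 (−1.85), Eno1 (−1.39), Gapdh (−1.31), Gpi1 (−1.09) and Pgk1 (−1.03) fell, and so did the lactate exporter Slc16a3 (−1.84) and Pdk1, which closes the entry of pyruvate into mitochondria (−1.90). The hexokinases Hk1 and Hk2 were at −0.12 and −0.15 (edgeR adjusted p = 0.21 and 0.148), and Hif1a at −0.06 (edgeR adjusted p = 0.416). Of the TCA cycle enzymes 13 of 21 fell and 2 rose, with a median of −0.19. One of the risers was Acod1, the itaconate synthase of activated macrophages, which only reached 1.42, 0.900 and 0.910 CPM. Transcripts of the mitochondrial genome fell in 10 of 13 genes and rose in 0 (median −1.38). mt-Co1, a subunit of cytochrome c oxidase, was at 5284, 5373 and 5419 CPM in the untreated libraries and 2562, 2432 and 2893 CPM with rIFNβ. mt-Co2 was at 26.4, 5.27 and 11.97 CPM and 3.77, 11.9 and 3.41 CPM in the same order, with groups that overlapped. It passed the test without untreated replicate 2 (edgeR adjusted p = 0.0369) or rIFNβ replicate 2 (0.0199). Nuclear copies of mitochondrial genes share their reads, so that these values are uncertain. Of 20 genes of NRF2 redox defence, a list of targets and regulators, 17 fell (median −0.88). Prdx1 was at 7697, 7904 and 7769 CPM in the untreated libraries and 1747, 1556 and 1589 CPM with rIFNβ, and Txnrd1 (−1.39), Gclm (−1.23) and the cystine importer Slc7a11 (−3.13) fell. The only member that rose was Keap1, the repressor of NRF2 (1.12). Iron genes gave 10 falls and 2 rises among 16. Tfrc, the transferrin receptor, went from 1004 ± 206 to 269 ± 33.03 CPM and the ferritin heavy chain Fth1 from 13312 ± 328 to 7441 ± 85.2 CPM.

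**Figure D3:**
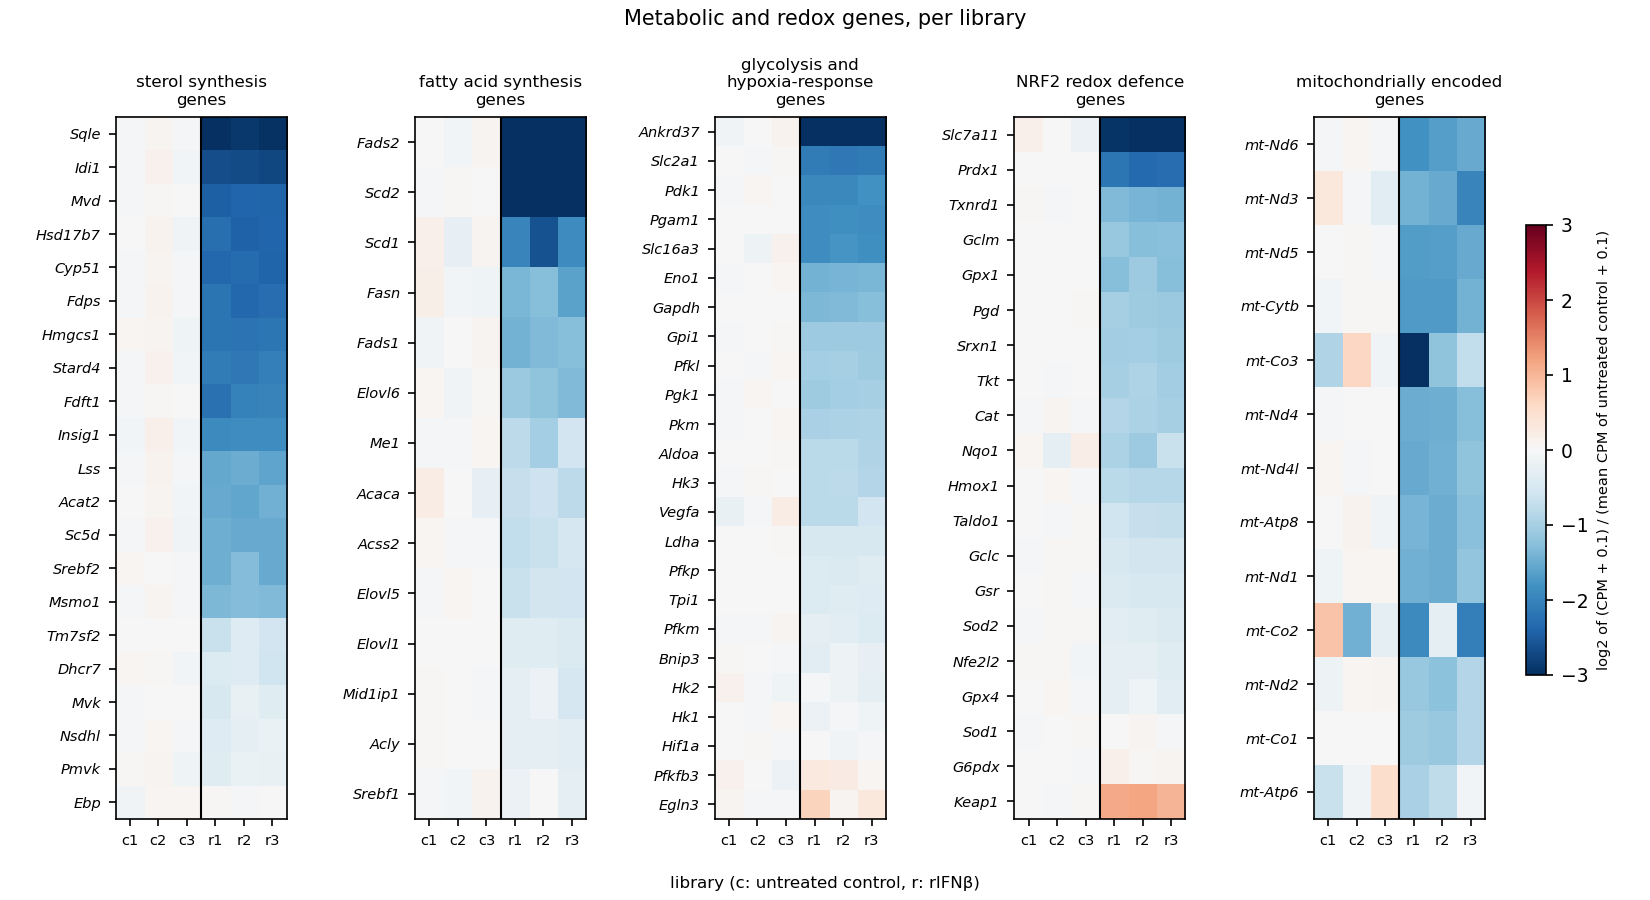
Each cell is the log2 of CPM over the mean CPM of the untreated libraries (0.1 CPM added to both) for 1 gene in 1 library, blue below and red above, for tested members of 5 lists in 3 untreated (c1 to c3) and 3 rIFNβ libraries (r1 to r3). The colour scale ends at 3 in either direction. The 3 rIFNβ libraries agree in colour for nearly all genes, Keap1 is red, and mt-Co2 and mt-Co3 vary within groups.

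Genes of DNA replication rose by small amounts. Of 40 tested 32 rose, 1 fell and 0 were called higher, with a median log2 fold change of 0.61. Mcm6, a subunit of the replicative helicase whose promoter is shown above, was at 72.7, 77.9 and 76.3 CPM in the untreated libraries and 171, 184 and 186 CPM with rIFNβ (1.26, standard error 0.06, edgeR adjusted p = 1.83e-08). Rfc3, of the clamp loader, was at 7.53, 8.28 and 8.99 CPM and 20.6, 18.9 and 20.7 CPM in the same order (1.27). Pcna, the clamp itself, was the member that fell (−0.32). Of 34 genes of mitosis 7 rose and 10 fell, shares near those over all genes, with a median of −0.04. Mki67, the proliferation marker, was at −0.37 (edgeR adjusted p = 0.0209) and lost its call without untreated replicate 1 or 2 or rIFNβ replicate 1 or 3 (0.0505 to 0.0813). Top2a was at 0.03 (edgeR adjusted p = 0.868), and the spindle factor Tpx2 rose (1.71). Ccnd1 and Ccnd2, the D-type cyclins of G1, rose (0.69 and 1.92), while Myc (−1.34) and the inhibitor Cdkn2b (−2.61) fell, and Cdkn1a, or p21, was at 0.14 (edgeR adjusted p = 0.224). Executioners of cell death rose in 16 of 21 genes and fell in 3. Among them were Mlkl, the pore former of necroptosis (2.00), Casp4 and Casp1, the inflammatory caspases (1.62 and 1.10), Gsdmd (0.82) and Casp8 (1.11), while the survival factor Bcl2 fell (−1.58). In the integrated stress response, Ddit3, which encodes CHOP, was at 26.00, 25.3 and 23.1 CPM in the untreated libraries and 158, 162 and 157 CPM with rIFNβ, and Nupr1 rose (3.65), but Psat1 fell (−2.15), and Asns and Chac1 were at −0.03 and 0.18 (edgeR adjusted p = 0.735 and 0.665). NF-kB genes rose in 10 of 15 and fell in 1, by small amounts (median 0.33). The one that fell was Tnfaip3, the inhibitor A20 (−1.34).

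**Figure D4:**
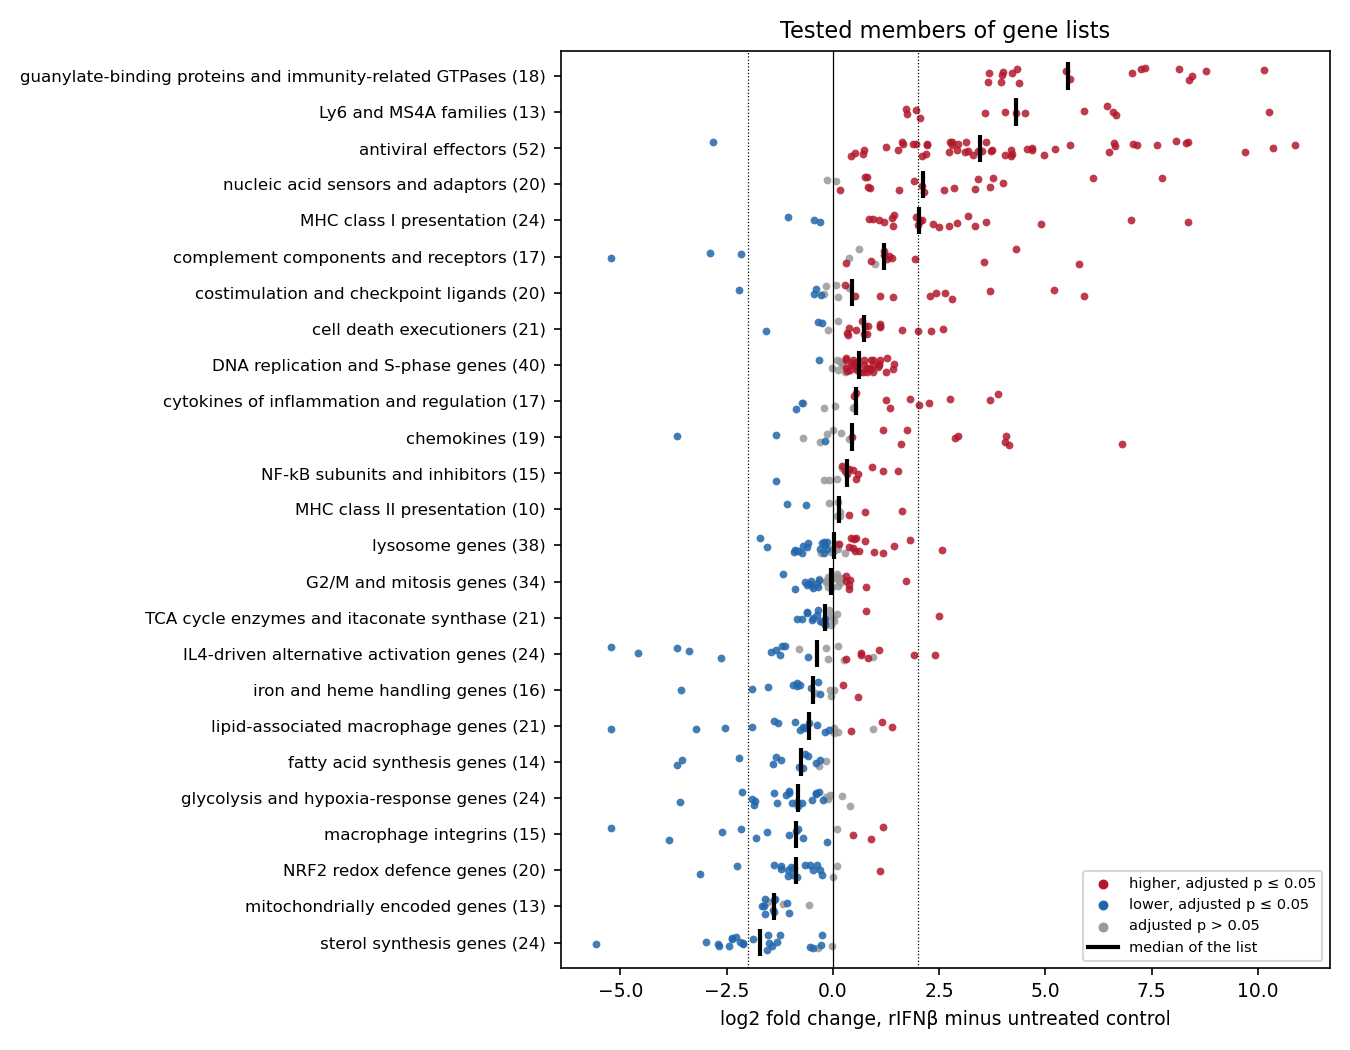
Each point is 1 tested gene of a list, with the log2 fold change, rIFNβ minus untreated control, on the x axis, red where it rose, blue where it fell and grey where the adjusted p exceeded 0.05. Black bars are list medians, the number of tested genes stands beside each name, and dotted lines mark 2 in either direction. Medians run from 5.54 for the guanylate-binding proteins and immunity-related GTPases to −1.71 for sterol synthesis.

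Whether the pure cytokine acted as the tumor-derived one was addressed by the 6 supernatant libraries, which share none with the 6 compared above. Over the 449 genes called higher here the median log2 fold change of Ifnb1eGFP against eGFP supernatant was 2.83, and over the 418 called lower it was −2.53, beside 0.03 over all genes. In that comparison 51 of 52 antiviral effectors rose (median 2.96), 21 of 24 members of MHC class I presentation rose (1.95), 23 of 24 sterol synthesis genes fell (−1.89) and 20 of 24 glycolysis genes fell (−0.90). The counts stood further apart for mitosis genes, with 2 of 34 that rose and 19 that fell with supernatant (median −0.39) beside 7 and 10 with rIFNβ (median −0.04), and for chemokines the medians were 1.298 and 0.44. These differences between lists were not tested. For single genes the values of rIFNβ and of Ifnb1eGFP supernatant were −5.22 and −4.93 for Itgax, 2.93 and 2.70 for H2-K1, and −2.98 and −3.02 for Sqle. For Ifit3 they were 8.31 and 5.75. The eGFP library that stood apart in antiviral genes enters every supernatant value given here. That includes the medians over antiviral effectors and over the genes called higher. The difference between the effects was tested as an interaction. With a limit of 0.05 on the adjusted p, 0 genes passed with edgeR and 16 with DESeq2, and 661 genes had an unadjusted p under 0.05 with edgeR. The smallest edgeR adjusted p belonged to Adgre5, the adhesion receptor CD97, with 1.25 for rIFNβ and 0.81 for Ifnb1eGFP supernatant (edgeR adjusted p = 0.297 for the difference), which passed with DESeq2 (adjusted p = 6.11e-08). Next, 17 genes shared an edgeR adjusted p of 0.67. Those with the smallest unadjusted p among them were Plxnb3, a semaphorin receptor (2.23 and 1.38), to which DESeq2 gave no adjusted p, and Il6ra (0.96 and 0.65), which passed with DESeq2 (adjusted p = 0.0241). A p that misses the threshold does not show that the effects were alike.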

How the data were processed

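RNA from BMDM was sequenced as stranded total RNA in 12 libraries. The authors deposited 1 table of expected counts per gene, made with RSEM 1.3.3 and not normalised. The methods name the genome by the names of both GRCm39 and mm10, so no coordinates were taken for the counted genes. Since 12.03% of values were not whole, the expected counts were rounded. All 12 columns matched a sample, and 0 were left unused.

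Groups followed the labels. Genes passing filterByExpr were fitted in edgeR 4.0.16 (R 4.3.3) with TMM factors and a quasi-likelihood test over all 12 libraries, and rIFNβ was contrasted with untreated control, with Benjamini-Hochberg adjustment over 15033 genes. Standard errors were derived from the fitted log2 fold change and its F statistic. DESeq2 1.42.0 was an alternative, beside RLE factors, no filter, a replicate block, the 6 compared libraries alone, other thresholds and each library left out. An exact permutation test of 3 against 3 cannot go below 0.1 and was not used. A gene at 0 in a group was set against a floor of 3 counts per library. Intervals cover counting error only.

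On simulated counts of 14771 genes for this comparison, 86% of changes of 1 and 99% of changes of 2.5 on the log2 scale were recovered, with 0.048% false calls. Changes were planted in a small part of the genes, all with a mean above 1 CPM and as many up as down. All other genes were left unchanged. The rates hold for that setting, not for genes under 1 CPM or for data in which many genes change, as here.

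Named genes were the 12 largest rises and falls by log2 fold change among called genes with groups that did not overlap and a mean of 5 CPM or more in the higher group (predicted genes, Riken clones and pseudogenes left out), the 8 largest gains and losses in mean CPM, up to 5 members with the smallest adjusted p of each of 55 gene lists together with members that define a list by their role, and the receptors and genes of the interaction test. The members and lists were chosen with earlier results of these data known. Of 970 listed genes 860 were tested, 395 rose and 289 fell. Promoters were matched by symbol, with older symbols where needed. Some genes that this rule names are not reported here.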

Additional observations from a re-analysis of the deposited data

Results flagged for a closer look

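In the eGFP supernatant group, which the comparison of rIFNβ with untreated control does not use, replicate 2 had a summed 4748 CPM over the antiviral effectors, where the other eGFP libraries had 2653 and 2908 CPM and the untreated libraries 2583 to 2983 CPM. It lay above the untreated range and far below the rIFNβ libraries, at 26770.0 to 28013 CPM. The cause was not tested.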

How the results depend on the processing

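The number of genes called stayed within 1.5 times the 867 reported under each alternative except the looser thresholds. It was 912 with DESeq2, 870 with RLE factors, 960 with no filter and 797 with only the 6 compared libraries. With a log2 fold change of 1 and an adjusted p of 0.05 as limits, 2400 genes were called, 1163 higher and 1237 lower. The ISRE core was then held by 15.6% of the promoters listed for protein-coding genes called higher and 1.24% for those called lower. Only 74.6% and 74.4% of these genes had a listed promoter, under the share needed, so that this check is void as well. With each of the 6 compared libraries left out in turn, the genes called numbered 844 to 872, with 434 to 455 higher and 402 to 417 lower, and 7479 to 7687 genes passed an adjusted p of 0.05. The interaction gave 16 genes with DESeq2 against 0 with edgeR. Leaving out eGFP supernatant replicate 2, an alternative chosen after seeing the data, gave 878 calls, of which 855 were shared with those reported. DESeq2 shared 840 and RLE factors 852.

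Same-numbered untreated and rIFNβ libraries had correlations of their deviations from the group means of 0.0765 to 0.108, and others of −0.0871 to −0.0112. Every library correlated best with its own number, a hint from the data, but the correlations were small and no label ties the numbers. Whether the libraries are paired stayed unresolved, and the main fit treated them as unpaired. With a replicate block 867 genes were called, 853 of them the same, and 8846 passed an adjusted p of 0.05. The block called Ccl2 (0.000342), Socs3 (0.00176), Hk2 (0.0127), H2-Aa (0.0313) and Tnf (0.0414), which did not pass without it.

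Genes with few counts in 1 group have folds that rest on those counts, and levels of alike paralogs depend on how reads were divided. The sign of the median over lysosome genes turned with RLE factors and with DESeq2. With only the 6 compared libraries in the fit Arg1, Hk1, Mvk, Srebf1 and Sting1 passed (edgeR adjusted p of 0.00288 to 0.0448), and with no filter Ccl2, Socs3 and mt-Co2 passed and Jak1 (0.0832) and Cd79b (0.102) did not. Cd79b also missed the threshold with only the compared libraries (0.0627).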

Other observations

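Gene groups beyond those described moved in both directions. Of 15 tested growth factors 6 fell and 2 rose. Hbegf, an EGF receptor ligand, was at 52.1, 47.9 and 40.6 CPM in the untreated libraries and 7.57, 7.58 and 6.90 CPM with rIFNβ (−2.67 on the log2 scale, edgeR adjusted p = 5.84e-09). Pdgfa fell as well (−1.61) and Vegfa less (−0.72), whereas Bmp2 rose (2.20). Of 24 lineage transcription factors 10 fell and 8 rose. Bhlhe40, which supports proliferation of tissue macrophages, fell with Egr2 and Klf4 (−3.13, −3.37 and −1.25), and Batf2 rose (2.48). Among receptors of colony-stimulating factors Csf2ra and Csf2rb, the chains of the GM-CSF receptor, fell (−0.85 and −0.90) and Csf3r rose (1.17).

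Purinergic receptors included 7 rises and 4 falls among 13. P2ry14, a receptor of UDP-sugars, was at 10.2, 10.7 and 9.53 CPM in the untreated libraries and 94.5, 83.1 and 90.3 CPM with rIFNβ (3.14), and P2ry12 rose (2.94). In the prostanoid and leukotriene pathway 6 of 15 genes rose and 5 fell. Hpgd, which inactivates prostaglandins, fell (−2.70), Alox5, which starts leukotriene synthesis, fell (−1.31), and the leukotriene receptor Cysltr1 rose (1.61). Lysosome genes gave 14 rises and 16 falls among 38, and the proteases Ctsc, Lgmn and Ctsh rose (2.56, 1.82 and 1.43) while the proton pump subunit Atp6v0a1 fell (−1.56). Of 14 arginine, nitric oxide and polyamine enzymes 4 rose and 6 fell, and of 23 fatty acid oxidation and lipid droplet genes 5 rose and 14 fell, with Cpt1a, the gate of mitochondrial import, higher (0.71).

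Markers of blood cells mostly failed the filter. Tested were 4 of 9 dendritic cell markers, 1 of 10 of neutrophils, 2 of 12 of T and NK cells, 4 of 9 of B cells, 1 of 9 of mast cells, 2 of 9 of the erythroid and megakaryocyte lineage and 1 of 6 of melanoma cells, against 10 of 12 stromal and endothelial markers. Of the latter Kdr and Pecam1, endothelial receptors, rose (2.59 and 1.64), as did Dcn, the proteoglycan decorin, at 12.5, 4.74 and 12.5 CPM in the untreated libraries and 28.1, 18.8 and 29.01 CPM with rIFNβ. The collagen chain Col1a1 fell (−1.08). Pdgfra was at 1.17 and lost its call without untreated replicate 2 (edgeR adjusted p = 0.0506), and Col3a1 was at −0.95 and lost it without untreated replicate 1 or 3 or any 1 rIFNβ library (0.0723 to 0.118). S100a8, a granulocyte gene that young monocytes also express, was at 5.72, 5.12 and 4.26 CPM in the untreated libraries and 0.0890, 0.247 and 0.480 CPM with rIFNβ (−4.16). Of the dendritic cell markers Zbtb46 fell (−2.22), Bst2, which interferon induces in many cells, rose (3.11), and Clec9a and Ccr9 did not pass (edgeR adjusted p = 0.628 and 0.96). Pf4, a platelet chemokine, was at 170.1, 186 and 196 CPM and 149, 209 and 198 CPM in the untreated and rIFNβ libraries (edgeR adjusted p = 0.971). Their part in the results above was not tested. By annotated class, the calls held 341 protein-coding genes higher and 342 lower, and 54 long non-coding RNAs higher and 51 lower.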
